A study of Homo sapiens with 2 samples.

Results

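Mitochondrial ribosomal protein genes were compared between FTC-133 thyroid cancer cells that had received siRNA against CHI3L1 and FTC-133 cells that had received a control siRNA. The genes were chosen by symbol: protein-coding genes whose symbol is MRPL (large subunit) or MRPS (small subunit) followed by a number and, in some, a letter. Of 78 such symbols in the gene name table, 77 were matched among the 19362 genes measured, 48 MRPL and 29 MRPS genes. MRPL53 was not analysed here. FTC-133, the established line used for both groups, came from a human follicular thyroid carcinoma. CHI3L1 encodes chitinase-3-like protein 1, a secreted glycoprotein that binds chitin. There was 1 RNA-seq library per group, so no difference below has a replicate check or a test, and every comparison sets 1 library against the other rather than the conditions. A knockdown in 1 cell line by transfection leaves the gene itself in place, and no source used here gives the siRNA sequences or the time after transfection.

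The mitochondrial ribosome translates the few messenger RNAs of the mitochondrial genome, which encode membrane subunits of the respiratory chain and of ATP synthase. Its ribosomal RNAs are made inside the organelle, whereas all its proteins are encoded in the nucleus, made in the cytosol and imported. Some of these proteins descend from proteins of the bacterial ribosome and others were added in the mitochondrial lineage. The small subunit binds the messenger RNA and decodes it, and the large subunit forms the peptide bond and passes the new chain to the inner membrane through its exit tunnel.

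Levels are CPM as deposited, reads of a gene scaled by a factor per library. The control siRNA library held 15837449 reads and the CHI3L1 siRNA library 19467345, and 1 read was worth 0.0632 and 0.0513 CPM. The deposited values summed to 1001500 and 998507 CPM, so the scaling was not by these read totals alone. The log2 fold was taken as CHI3L1 siRNA over control siRNA with 1 CPM added to both, a scale on which differences of low genes come out too small. A gene was tested by size when its mean over both libraries was at least 1 CPM, and it is called lower or higher at 1.5-fold. Of 14815 tested genes, 13.4% were lower and 7.73% higher at 1.5-fold, and 4.41% were lower and 1.03% higher at 2-fold, with a median log2 fold of 0.01. Ratios of CPM carry 95% exact (Clopper-Pearson) intervals computed from the reads. These cover counting error only, and no molecular identifiers are described. CHI3L1, the labelled target, had 2215 reads (140 CPM) under control siRNA and 947 reads (48.6 CPM) under CHI3L1 siRNA, a ratio of 0.347 (0.321 to 0.374). Of 8 thyroid follicular markers, 6 were measured and 4 had a mean of at least 1 CPM, led by the transcription factors PAX8 (82.8 and 71.2 CPM) and NKX2-1 (88.6 and 112 CPM). TG, which encodes thyroglobulin, stood at 0.632 and 0.718 CPM. Summed levels in the control siRNA and CHI3L1 siRNA libraries were 184 and 198 CPM for thyroid markers, 86.9 and 86.4 CPM for 5 epithelial markers, 60.7 and 49.7 CPM for 4 fibroblast markers, 8.79 and 5.69 CPM for 2 of 3 endothelial markers and 0.759 and 0.410 CPM for the 1 measured of 5 immune markers, PTPRC. Most of the fibroblast sum was LUM (51.8 and 40.2 CPM). The part of other cells in the results was not tested, and in bulk RNA fewer cells of a type and less RNA per cell cannot be told apart.

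Sequence windows at the gene starts are shown first. The promoter table of RefSeq (GRCh38.p14) held windows of 300 bases, 250 before and 50 after the start, for 68 of the 77 genes, 84 windows in all. Exact letters were searched on both strands. The motif of ETS factors such as GABPA, CCGGAAG, was in 38.1% of these windows against 10.3% of all 35116 windows in the table. Counted by gene, 29 of 68 mitochondrial ribosomal protein genes (42.6%) had it, against 22.2% of 10270 other tested protein-coding genes. The YY1 motif AAGATGGCG was in 15.5% of the windows against 1.75% of all windows, and in 13 of the 68 genes (19.1%) against 4.55% of the other tested genes. Of its 14 matches, 12 were on the strand of the gene, and 10 of these lay within 50 bases after the start. The letters contain ATG, a start codon, so such a match can also be the beginning of a coding sequence. Which of these the matches are was not tested. Both motifs were in 1 window for 4 genes. A match is a run of letters and not a measured binding site, and no match says only that these letters are not in this window.

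The 7 windows below show these motifs in genes from the lowest to nearly level folds. They were chosen after the values were seen. Each holds 150 bases 5′ to 3′ on the strand of the gene, 120 before the annotated start and 30 from it on. Capitals mark AAGATGGCG in MRPL46 (chr15:88467359-88467508, minus strand), MRPL42 (chr12:93467394-93467543, plus strand) and MRPS30 (chr5:44808827-44808976, plus strand), both CCGGAAG and AAGATGGCG in MRPS18A (chr6:43687762-43687911, minus strand) and MRPS10 (chr6:42217832-42217981, minus strand), and the NRF1 palindrome in MRPL17 (chr11:6683311-6683460, minus strand). MRPL1 (chr4:77862710-77862859, plus strand) had the lowest fold of all and none of these 3 motifs in its window.
MRPL1: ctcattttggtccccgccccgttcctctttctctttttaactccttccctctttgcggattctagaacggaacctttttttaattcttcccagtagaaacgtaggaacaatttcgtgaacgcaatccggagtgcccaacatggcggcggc
MRPL46: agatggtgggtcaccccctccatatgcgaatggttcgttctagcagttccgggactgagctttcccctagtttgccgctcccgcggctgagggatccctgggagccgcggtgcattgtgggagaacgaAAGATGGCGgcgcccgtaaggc
MRPL42: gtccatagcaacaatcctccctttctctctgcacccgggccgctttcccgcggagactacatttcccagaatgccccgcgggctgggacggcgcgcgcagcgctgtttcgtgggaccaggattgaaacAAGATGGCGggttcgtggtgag
MRPL17: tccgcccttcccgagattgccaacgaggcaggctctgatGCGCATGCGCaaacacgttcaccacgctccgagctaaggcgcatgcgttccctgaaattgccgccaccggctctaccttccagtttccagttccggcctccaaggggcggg
MRPS18A: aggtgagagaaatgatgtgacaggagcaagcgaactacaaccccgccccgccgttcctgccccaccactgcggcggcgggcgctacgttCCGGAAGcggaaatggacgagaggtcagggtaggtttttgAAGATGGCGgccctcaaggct
MRPS30: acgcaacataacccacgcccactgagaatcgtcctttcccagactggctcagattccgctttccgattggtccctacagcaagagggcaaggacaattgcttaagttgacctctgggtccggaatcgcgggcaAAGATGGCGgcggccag
MRPS10: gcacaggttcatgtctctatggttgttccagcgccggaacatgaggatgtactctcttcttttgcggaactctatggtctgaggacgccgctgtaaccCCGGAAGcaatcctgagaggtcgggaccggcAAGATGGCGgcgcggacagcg

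In these lines the YY1 letters follow shortly after the start in all 5 windows that hold them, while the log2 folds of the same genes ran from −1.42 for MRPL46 and −1.27 for MRPL42 through −0.61 for MRPS18A to −0.22 for MRPS30 and −0.19 for MRPS10. Over all 68 genes the folds did not divide by these motifs. Genes with CCGGAAG had a median log2 fold of −0.78 and those without it −0.79, and 18 of 29 against 21 of 39 were at least 1.5-fold lower. With AAGATGGCG the median was −0.73 and without it −0.79. The NRF1 letters, those in capitals in the MRPL17 line, were found in MRPL17 alone, 1.19% of the windows against 1.24% of all. The E-box CACGTG was in 13.2% of the genes and 12.6% of the other tested genes. Counted by gene, the GC box GGGCGG was in 60.3% of the genes and 77.1% of the other tested genes. Counted by window the order was reversed, with 59.5% of the windows against 44.95% of all windows. The direction thus depended on the unit counted and the set compared. Genes with the GC box had a median log2 fold of −0.58, against −0.97 for the 27 without it. Of these 27, 20 were at least 1.5-fold lower, and of the 41 with the GC box 19 were. Over all tested genes the share was 13.4%.

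Mitochondrial ribosomal protein genes were lower in the CHI3L1 siRNA library as a group. All 77 passed the filter on the mean. At least 1.5-fold lower were 45 of 77 (58.4%) and at least 1.5-fold higher 0 of 77, against 13.4% and 7.73% of all tested genes. At least 2-fold lower were 28 of 77, against 4.41%. The median log2 fold was −0.80, the range −2.0 to 0.31 and the quartiles −1.16 and −0.31. Reads of these genes summed to 5843 CPM (92399 reads) under control siRNA and 3187 CPM (62142 reads) under CHI3L1 siRNA, a ratio of 0.546 (0.540 to 0.551), and made up 0.583% and 0.319% of all reads. The counting interval of the ratio lay below 1 for 64 genes, held 1 for 11 and lay above 1 for 2, MRPL10 and MRPS2.

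**Figure D1:**
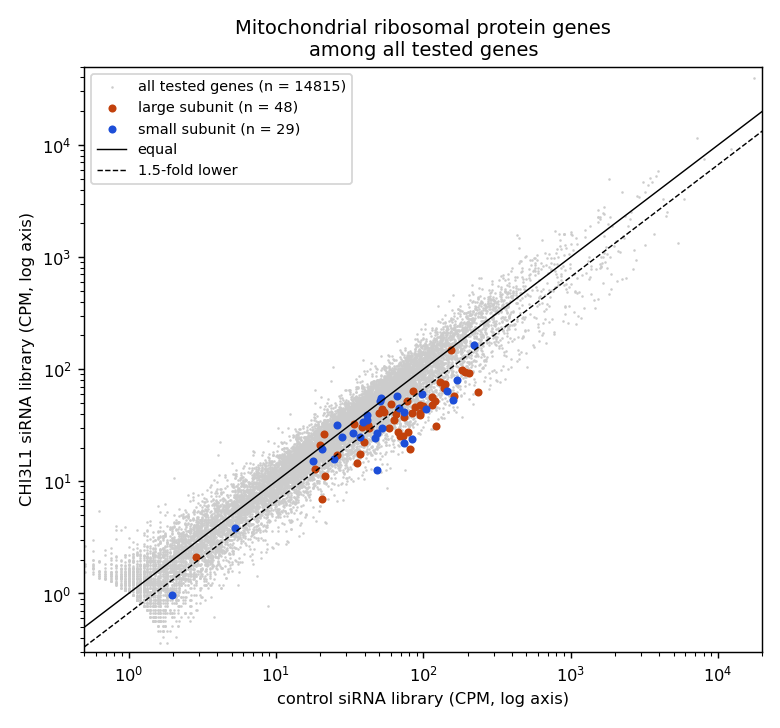
Level of each tested gene in the control siRNA library (x axis, CPM, log scale) and the CHI3L1 siRNA library (y axis, CPM, log scale), with 1 point per gene; grey points are all 14815 tested genes, orange points the 48 large subunit genes and blue points the 29 small subunit genes. Most coloured points lie under the solid line of equal levels, and 45 of 77 are at least 1.5-fold lower on the scale with 1 CPM added; the dashed line marks a plain ratio of 1.5.

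Levels ran from 1.96 to 234 CPM with a median of 65.6 in the control siRNA library, and from 0.975 to 166 CPM with a median of 35.4 in the CHI3L1 siRNA library. Per kilobase of annotated transcript, the 6 most abundant genes in the control siRNA library all encoded large subunit proteins. MRPL13 stood at 216 CPM per kb under control siRNA and 57.1 CPM per kb under CHI3L1 siRNA, and MRPL20 at 194 and 103 CPM per kb. MRPL41 stood at 163 and 72.7, MRPL33 at 162 and 78.4, MRPL32 at 155 and 55.8, and MRPL51 at 148 and 79.3 CPM per kb. All 6 were lower under CHI3L1 siRNA, where MRPL13, the highest in the control, stood below MRPL20, MRPL33, MRPL41 and MRPL51. Their log2 folds of CPM were −1.90 for MRPL13, −0.91 for MRPL20, −1.16 for MRPL41, −1.03 for MRPL33, −1.46 for MRPL32 and −0.89 for MRPL51. Across the 77 genes, log2 fold and control CPM had a Spearman rho of −0.54, against −0.05 across 12583 other tested protein-coding genes. The control value enters both measures, and genes share their libraries.

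Large subunit genes had a lower median fold than small subunit genes. Over all tested genes, 13.4% were at least 1.5-fold lower and 4.41% at least 2-fold lower. Of 48 MRPL genes, 32 (66.7%) were at least 1.5-fold lower and 21 at least 2-fold lower, with a median log2 fold of −0.93 and quartiles of −1.22 and −0.46. Of 29 MRPS genes, 13 (44.8%) were at least 1.5-fold lower and 7 at least 2-fold lower, with a median of −0.58 and quartiles of −0.93 and −0.20. The medians differed by −0.35 (large minus small), and the ranges overlapped almost fully, from −2.0 to 0.31 and from −1.86 to 0.26. Summed over genes, the large subunit stood at 3969 and 2055 CPM (ratio 0.518, 0.511 to 0.524), and the small subunit at 1874 and 1132 CPM (ratio 0.604, 0.594 to 0.615). Large subunit genes thus had 2.12 reads (2.09 to 2.15) per small subunit read in the control siRNA library and 1.82 (1.79 to 1.85) in the CHI3L1 siRNA library. The large subunit is also the part with more genes and, in the control siRNA library, the higher median level (73.3 against 48.7 CPM).

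**Figure D2:**
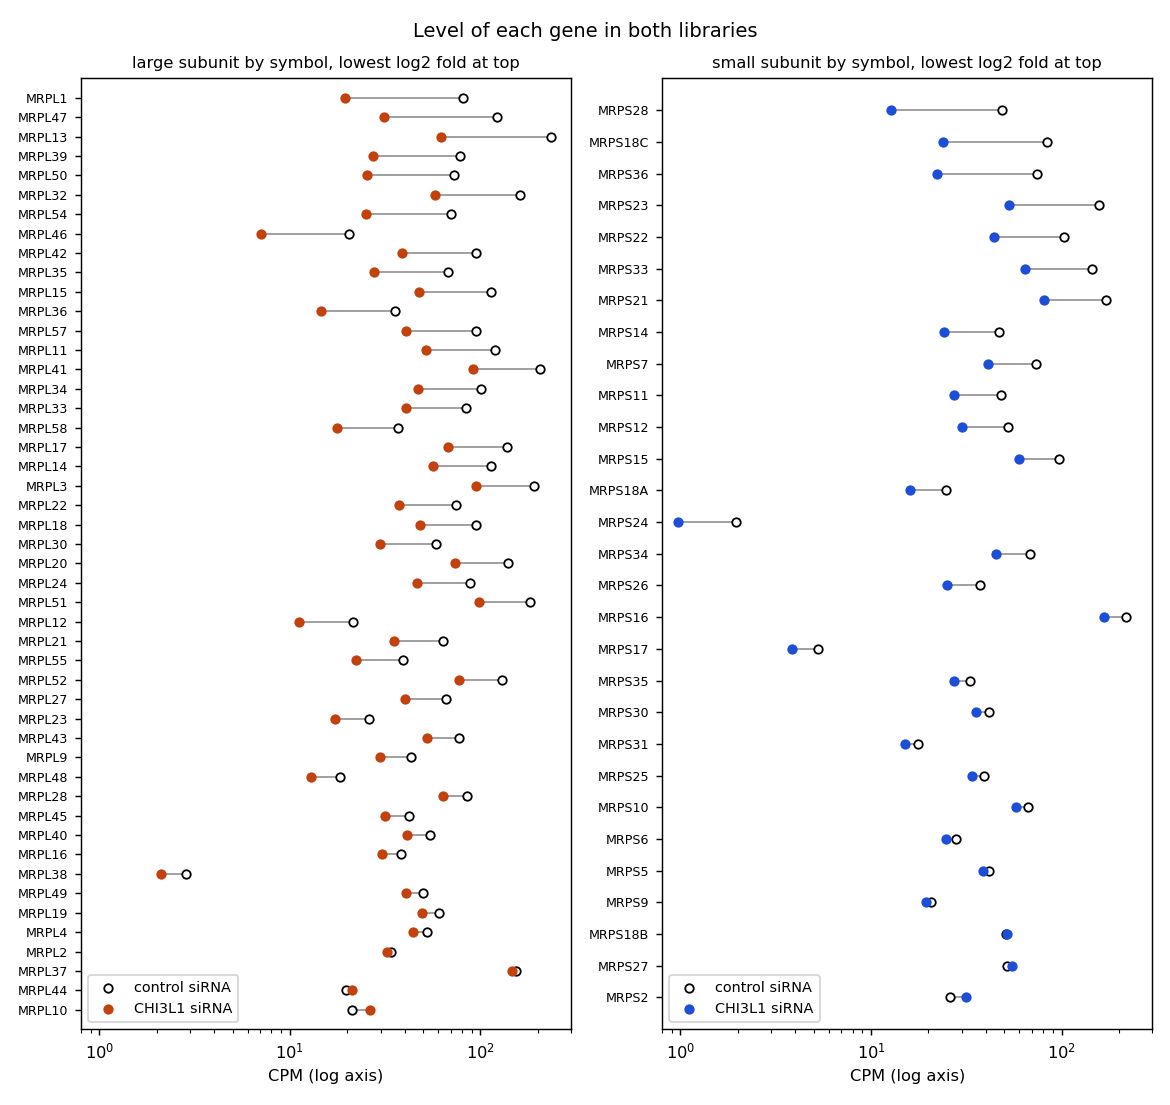
CPM (log axis) of each of the 77 genes in the control siRNA library (open circles) and the CHI3L1 siRNA library (filled circles), with large subunit genes on the left and small subunit genes on the right, ordered by log2 fold. The filled circle lies left of the open one for all but MRPL10, MRPL44, MRPS2, MRPS27 and MRPS18B.

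The lowest folds were of genes from both subunits. MRPL1 (ENSG00000169288, chromosome 4, 77862520 to 77952790, plus strand, GRCh38), a protein of the flexible stalk on the side of the large subunit from which transfer RNAs leave, stood at 80.6 CPM under control siRNA and 19.4 CPM under CHI3L1 siRNA. Its log2 fold was −2.0 and its ratio 0.241 (0.215 to 0.271). MRPL47 (ENSG00000136522, chromosome 3, 179588285 to 179604654, minus strand), a protein at the opening of the exit tunnel, stood at 123 and 31.1 CPM (ratio 0.253, 0.231 to 0.278). MRPL13, whose gene had the most reads of the group in the control siRNA library, stood at 234 and 62.0 CPM (ratio 0.265, 0.248 to 0.283). The counting intervals of these 3 large subunit genes overlapped.

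Among small subunit genes, MRPS28 stood at 48.7 and 12.7 CPM (ratio 0.261, 0.226 to 0.302), and MRPS18C at 84.2 and 24.0 CPM (ratio 0.285, 0.256 to 0.317). MRPS23 (ENSG00000181610, chromosome 17, 57834781 to 57850056, minus strand) stood at 158 and 53.0 CPM (ratio 0.335, 0.312 to 0.361). Its annotated transcript of 5621 nt is long for this family, with 573 nt of coding sequence. MRPS36 stood at 74.0 and 22.2 CPM (ratio 0.299, 0.267 to 0.334). Its product is known as a subunit of the 2-oxoglutarate dehydrogenase complex and is not found in structures of the ribosome, although the symbol rule takes it. The 8 lowest were completed by MRPL39 at 78.3 and 27.4 CPM (ratio 0.350, 0.316 to 0.388). All 8 had log2 folds at or below −1.48.

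At the other end, MRPL10 (ENSG00000159111, chromosome 17, 47823272 to 47831534, minus strand), the protein that anchors the stalk of the large subunit, stood at 21.2 CPM under control siRNA and 26.5 CPM under CHI3L1 siRNA. Its log2 fold was 0.31 and its ratio 1.25 (1.09 to 1.44). MRPS2 (ENSG00000122140, chromosome 9, 135499984 to 135504673, plus strand), a small subunit protein with a bacterial counterpart, stood at 26.1 and 31.5 CPM (ratio 1.21, 1.06 to 1.37). Neither reached 1.5-fold, and both stood above 0 under each scaling that was tried. MRPS27 (51.7 and 55.1 CPM), MRPL44 (19.8 and 21.1 CPM) and MRPS18B (50.8 and 51.8 CPM) had ratios of 1.07 (0.974 to 1.17), 1.07 (0.919 to 1.24) and 1.02 (0.927 to 1.12). Their log2 folds were 0.09, 0.09 and 0.03, and −0.01, −0.01 and −0.07 after centring on genes that averaged 50 CPM or more, so their direction depended on the scaling. MRPL37 (154 and 147 CPM), MRPL2 (33.9 and 32.4 CPM) and MRPS9 (20.6 and 19.5 CPM) completed the 8 highest, with log2 folds of −0.06, −0.06 and −0.07 and intervals that held 1. MRPL37 was thus among the more abundant genes of the family and was at nearly equal levels in both libraries.

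In 2 places of the large subunit, the stalk and the exit tunnel, the genes spread over a wide range of folds. At the stalk that recruits translation factors, MRPL11 stood at 119 and 51.8 CPM (log2 fold −1.19) and MRPL12 at 21.4 and 11.1 CPM (−0.88), whereas MRPL10, which holds MRPL12 on the ribosome, was on the other side of 0. Around the exit tunnel, 3 of 6 genes were at least 1.5-fold lower, near the 58.4% of the whole family, against 13.4% of all tested genes. These were MRPL47, MRPL22 (74.4 and 37.5 CPM) and MRPL24 (87.8 and 46.4 CPM). The other 3 had log2 folds of −0.56 for MRPL23, −0.39 for MRPL45, whose product contacts the inner membrane, and 0.09 for MRPL44. The 3 paralogs of bacterial protein S18 spanned nearly the whole range: MRPS18C at −1.77, MRPS18A at −0.61 (24.8 and 16 CPM) and MRPS18B at 0.03. Of these, MRPS18A lies in the large subunit despite its symbol, as does MRPS30 (41.4 and 35.4 CPM, log2 fold −0.22).

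With genes placed by their position in the ribosome and the proteins outside the naming rule added, 34 of 51 large subunit genes and 13 of 30 small subunit genes were at least 1.5-fold lower, with medians of −0.90 and −0.57. The 45 genes with a bacterial counterpart had a median of −0.88, with 29 at least 1.5-fold lower, and the 31 genes of the mitochondrial lineage −0.58, with 15, against 13.4% of all tested genes. MRPS36 is in neither class. Within the subunits by place the medians were −0.95 (29 genes) and −0.73 (21 genes) in the large subunit, and −0.63 (16 genes) and −0.42 (10 genes) in the small subunit. After the trend in length and GC described below was subtracted, the medians of the classes were −0.36 and −0.21. However, 15 of 45 and 11 of 31 were then at least 1.5-fold lower, nearly equal shares, against 7.36% of protein-coding genes.

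Folds in these libraries followed transcript length over all genes, and mitochondrial ribosomal protein genes are short. Across the 12583 other tested protein-coding genes, Spearman rho of log2 fold was 0.45 with transcript length, 0.45 with coding length and 0.10 with GC content of the transcript. Across the 77 genes it was 0.19, 0.42 and 0.35. The median annotated transcript was 1248 nt for large and 1532 nt for small subunit genes, the median coding sequence 588 and 591 nt, and the median GC content 50.8% and 47.3%. The coding lengths of both subunits were thus nearly equal, while the transcripts of the large subunit were shorter and richer in GC.

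Set beside genes of like coding length, the family was lower in each class, and large subunit medians were below small subunit medians in each. For at most 450 nt of coding sequence the median was −1.02 (22 genes, 19 at least 1.5-fold lower), with −1.03 for the large and −0.93 for the small subunit. The 800 other genes of that class had a median of −0.53, and 46.6% of all genes in it were lower. Above 450 and up to 600 nt the median was −0.95 (18 genes, 13 lower, class background 29.9%), with −0.98 for the large and −0.70 for the small subunit, against −0.30 for the other genes. Above 600 and up to 900 nt the median was −0.56 (21 genes, 9 lower, background 21.1%), with −0.67 and −0.56, against −0.17. Longer coding sequences had a median of −0.23 (16 genes, 4 lower, background 6.46%), with −0.31 and −0.21, against 0.14. Of the 77 genes, 19, 16, 18 and 16 in the 4 classes lay below the median of the other genes.

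**Figure D3:**
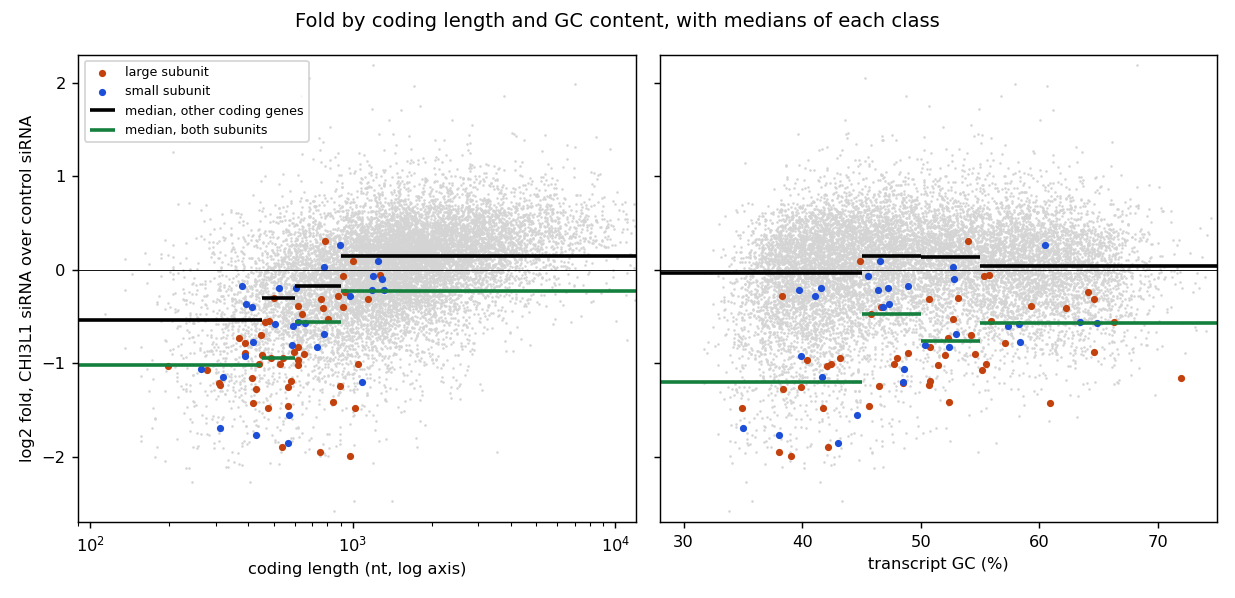
Log2 fold (y axis, CHI3L1 siRNA over control siRNA) against coding length (left, nt, log axis) and GC content of the annotated transcript (right, percent) for tested protein-coding genes, with large subunit genes in orange and small subunit genes in blue. Green lines, the class medians of the 77 genes, lie below the black lines of the other coding genes in each class, by most in the class with at most 45% GC (−1.20 against −0.03).

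By length of the whole transcript, 12 of 15 genes of at most 1000 nt were at least 1.5-fold lower, where 52.1% of all genes in the class were. So were 23 of 46 above 1000 and up to 2000 nt (background 23.4%), 7 of 12 above 2000 and up to 4000 nt (10.1%) and 3 of 4 longer ones (3.98%). The class medians were −0.95, −0.59, −0.87 and −1.21, against −0.61, −0.24, 0.03 and 0.25 for the other genes. The gap to other genes was thus wider above 2000 nt than below. MRPS23 and MRPL42 (95.2 and 38.8 CPM, log2 fold −1.27), with an annotated transcript of 15582 nt and a short coding sequence, are of the longest class. Which transcript these cells use was not tested.

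Among classes of GC content the gap between the subunits varied. At most 45% GC, 17 of 22 genes were at least 1.5-fold lower (background 18.8%), 11 of 13 large and 6 of 9 small subunit genes, with medians of −1.26 and −1.15. Between 45% and 50% the medians were −0.98 for 8 large and −0.22 for 9 small subunit genes, and 8 of 17 were lower (background 9.33%). From 50% to 55% they were −0.82 and −0.68, with 12 of 18 lower (8.6%). Above 55% they were −0.56 and −0.58, with 8 of 20 lower (8.68%), so the order of the subunits did not hold in that class. MRPL41, in that class with 71.9% GC, stood at 206 and 91.8 CPM.

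A smooth trend in coding length, transcript length and GC content was fitted to the 12583 other protein-coding genes, where it took up 35.6% of the variance, and was subtracted. The median of the 77 genes then was −0.33, with 26 at least 1.5-fold lower and 0 higher, against 7.36% and 5.92% of protein-coding genes. At least 2-fold lower were 9 of 77, against 1.58%. All 26 were among the 45 called before. The number below 0 went from 72 to 62, and the 10 genes that crossed included 1 that had been at least 1.5-fold lower, MRPL33. Large subunit genes had a median of −0.46 with 19 of 48 lower, and small subunit genes −0.17 with 7 of 29 lower, a difference of −0.28. The trend value alone was −0.62 for MRPL13 and −1.05 for MRPL33, the shortest coding sequence of the family (198 nt), so that MRPL33 went from −1.03 to 0.02. MRPS23 (−1.62), MRPL1 (−1.46), MRPL13 (−1.28), MRPL47 (−1.27), MRPS28 (−1.22) and MRPS18C (−1.01) were still at least 2-fold lower, while MRPS36 was at −0.56 and MRPL39 at −1.0. MRPL10 and MRPS2 were at 0.46 and 0.47. Whether length or GC had a part in the folds beyond this trend was not tested.

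Several of these genes start back to back with a gene on the opposite strand, which gives a second value from the same stretch of chromosome. This comparison was chosen after the values were seen. In 26 cases a tested protein-coding gene started within 1000 nt on the other strand, with MRPL46 and MRPS11 being partners of each other. Starts here are the outer ends of the annotated genes and can lie away from the sequence windows. MRPL11 starts at 66466738 by this measure, while its window spans 66438799 to 66439098. The median log2 fold was −0.95 for the mitochondrial ribosomal protein genes and −0.05 for their partners. At least 1.5-fold lower were 21 of 26 and 7 of 26, against 13.4% of all tested genes, and 1 partner was at least 1.5-fold higher. In the 24 pairs without MRPL46 and MRPS11, the medians were −0.95 and −0.03, with 19 and 5 lower. The ribosomal gene had the lower fold in 23 of 26 pairs. Partners had longer coding sequences, with a median of 1614 nt against 494 nt. After the trend was subtracted, the medians were −0.56 and −0.13, and the ribosomal gene was lower in 20 of 26.

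MRPL13 and MTBP, whose annotated starts lie 2 nt apart, stood at 234 and 62.0 CPM and at 19.3 and 18.1 CPM, log2 folds of −1.90 and −0.09. MRPL57 (95.3 and 40.6 CPM) starts 43 nt from SKA3 (14.5 and 20.4 CPM), a gene of the outer kinetochore, with log2 folds of −1.21 and 0.46. MRPL14 (114 and 56.1 CPM) and TMEM63B (41.2 and 63.1 CPM) had −1.01 and 0.60. In these 3 pairs the ribosomal gene was lower and its partner was level or higher. Other pairs were lower on both sides. MRPL47 and NDUFB5, a subunit of respiratory complex I, start 36 nt apart and had log2 folds of −1.95 and −0.88. MRPL32 and the proteasome gene PSMA2 had −1.46 and −1.68, and MRPL30 and MITD1 −0.95 and −0.93. For MRPL49 and FAU, whose product includes a cytosolic ribosomal protein, the partner had the lower fold (−0.30 and −1.16).

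**Figure D4:**
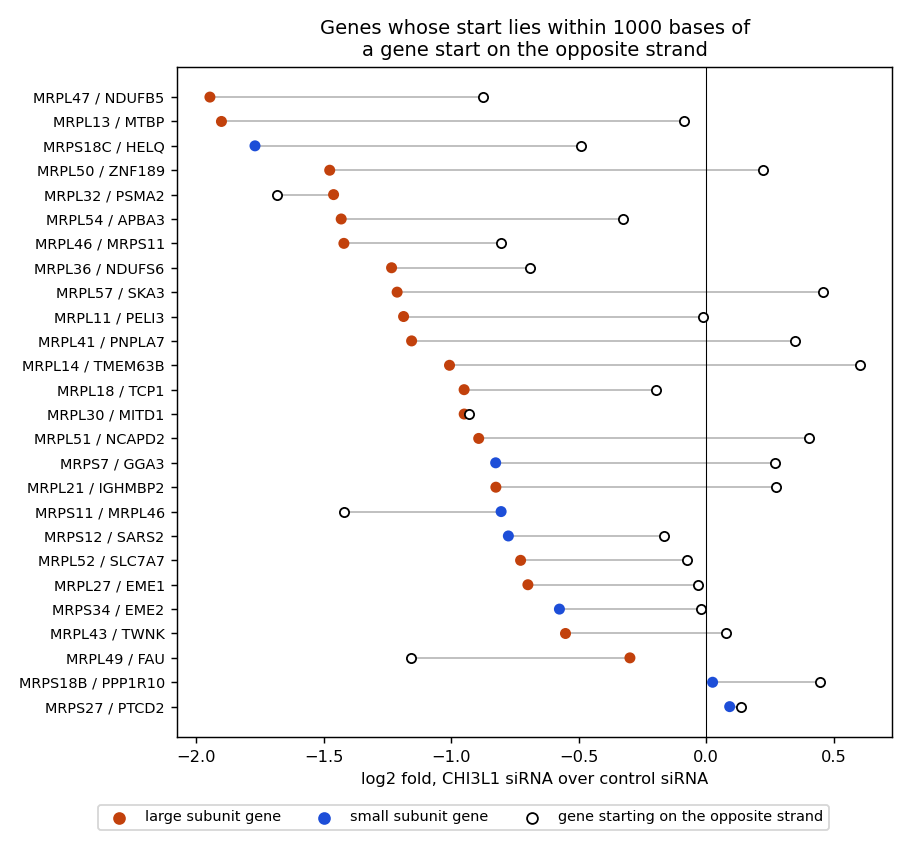
Log2 fold (x axis, CHI3L1 siRNA over control siRNA) of mitochondrial ribosomal protein genes (filled, orange for large and blue for small subunit) and of the gene that starts within 1000 nt on the opposite strand (open), 1 line per pair, lowest ribosomal gene at top. The filled point is left of the open one in 23 of 26 pairs, and MRPL32, MRPL49 and MRPS11 are the exceptions.

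Reads of several genes could be counted for an overlapping gene or left out. No source used here gives the strand setting of the counting or how it handled overlaps. Reads of a gene and its antisense partner cannot then be told apart. Exons of 40 of the 77 genes overlap an exon of another annotated gene, 29 on the opposite and 15 on the same strand, and for 9 at least 10% of exonic bases are shared on the same strand. For 7 the overlapping gene had more control reads than the ribosomal gene. On the opposite strand these were MRPL49 (FAU, 436 CPM), MRPS14 (CACYBP, 126 CPM), MRPS22 (COPB2, 375 CPM) and MRPS25 (NR2C2, 43.3 CPM). On the same strand they were MRPL28 (TMEM8A, 88.6 CPM), MRPS17 (NIPSNAP2, 105 CPM) and MRPS6 (SLC5A3, 66.1 CPM). The log2 folds of the 7 were −0.30 for MRPL49, −0.93 for MRPS14, −1.20 for MRPS22, −0.20 for MRPS25, −0.41 for MRPL28, −0.37 for MRPS17 and −0.18 for MRPS6, and those of their overlapping genes −1.16, −0.66, −0.03, 0.13, 0.41, −0.56 and 0.47 in that order. MRPS24, the least abundant gene at 1.96 and 0.975 CPM (31 and 19 reads), shares 606 of 2613 exonic bases with the readthrough gene URGCP-MRPS24 (23.2%). Its annotated transcript has only 707 nt, so the percentage can understate the shared part of that transcript. Whether the few reads of MRPS24 come from the handling of shared bases was not tested. MRPS17, MRPS28, MRPL12, MRPL33 and MRPL38 also share over 20% of their exonic bases with a gene on the same strand. For MRPS17 this is AC092647.5 (21.8%), which was not among the genes measured. The shared bases were 471 for MRPS17, 650 for MRPS28, 701 for MRPL12, 324 for MRPL33 and 1373 for MRPL38. The annotated transcripts of these genes have 1845, 850, 1028, 518 and 1888 nt in that order. How many of the shared bases lie in these transcripts was not tested. Processed pseudogenes of these genes are another source of uncertain reads. Among the 37 genes with no overlap, 25 were at least 1.5-fold lower, against 13.4% of all tested genes. These were 20 of 25 large and 5 of 12 small subunit genes.

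The 5 ribosome proteins whose genes do not carry an MRP symbol were lower in the same way for 3. CHCHD1 stood at 79.7 and 30.6 CPM (log2 fold −1.35), GADD45GIP1 at 211 and 113 CPM (−0.90) and AURKAIP1 at 199 and 107 CPM (−0.88). DAP3, a GTP-binding protein of the small subunit, stood at 94.0 and 78.7 CPM (−0.25), and PTCD3, a small subunit protein with pentatricopeptide repeats, at 48.1 and 54.5 CPM (0.18). Cytosolic ribosomal protein genes, taken by symbol, had a median of −0.88 with 64 of 83 at least 1.5-fold lower, against 13.4% of all tested genes. After the trend their median was −0.49 with 35 lower, against 7.36% of protein-coding genes. The lowest folds of cytosolic ribosomal protein genes were −2.08 for RPL22L1, −2.05 for RPL34, −1.99 for RPL7 and −1.95 for RPL30.

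Genes that build or serve the mitochondrial ribosome had medians nearer to 0 than its proteins in the deposited values, and they have longer coding sequences. After the trend the medians were −0.15 for assembly factors, −0.29 for translation factors, −0.16 for aminoacyl-tRNA synthesis and −0.19 for DNA maintenance and transcription, against −0.33 for the 77 genes and −0.17 for their small subunit, so the contrast was small or turned. Of 27 assembly factors, 4 were at least 1.5-fold lower and 0 higher, with a median of −0.18. That share is near the 13.4% of all tested genes, and after the trend 2 were lower. The 4 were GTPBP10, a GTPase of large subunit maturation (90.6 and 37.3 CPM, log2 fold −1.26), MTERF3 (37.9 and 17.6 CPM, −1.07), MPV17L2 (−0.64) and RBFA, a small subunit assembly factor (−0.61). Of 18 tested translation factors and RNA-binding proteins, 6 were lower and 0 higher, with a median of −0.36, against 13.4% and 7.73% of all tested genes. After the trend 3 were lower, against 7.36% of protein-coding genes. SLIRP, which binds mitochondrial messenger RNAs, stood at 216 and 49.3 CPM (log2 fold −2.11, and −1.27 after the trend). The first value is below that of any of the 77 genes, and the second is not. MTRF1, a release factor, had −1.09, the initiation factor MTIF3 −0.90 and the peptide deformylase PDF −0.69. TSFM was listed at 0.443 and 0.308 CPM and was under the filter.

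Of 20 mitochondrial aminoacyl-tRNA synthesis genes, 2 were lower and 0 higher, with a median of −0.08, a share no larger than the 13.4% of all tested genes. RARS2 stood at 105 and 55.5 CPM (log2 fold −0.91), and FARS2, NARS2 and IARS2 had log2 folds of −0.63, −0.54 and 0.47. Of 13 genes of mitochondrial DNA maintenance and transcription, 5 were lower and 0 higher, with a median of −0.29, against 13.4% and 7.73% of all tested genes. After the trend 3 were lower, against 7.36% of protein-coding genes. The elongation factor TEFM stood at 28.1 and 9.69 CPM (−1.44), the single-stranded DNA-binding protein SSBP1 at 254 and 137 CPM (−0.88), and PRIMPOL and MTERF1 had −0.88 and −0.81. The 9 regulators of nuclear mitochondrial genes had a median of 0.05, and 0 passed 1.5-fold. The largest folds among them were −0.49 for ESRRA, 0.33 for PPARGC1A, 0.28 for NRF1 (13.7 and 16.9 CPM) and −0.17 for GABPB1, a partner of GABPA.

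The RNAs that the mitochondrial ribosome reads and is built on were not lower by 1.5-fold. The 13 mitochondrially encoded messenger RNAs had log2 folds from 0.14 to 0.67 with a median of 0.42. Of these, 2 were at least 1.5-fold higher, against 7.73% of all tested genes. The 2 were MT-CO1 (7247 and 11504 CPM, 0.67) and MT-ND6 (534 and 843 CPM, 0.66), followed by MT-ND5 (0.57) and MT-CO2 (0.48). All 13 stood above 0 also when folds were centred, which moved each fold by 0.10. The ribosomal RNA of the large subunit, MT-RNR2, stood at 8082 and 7422 CPM (−0.12) and that of the small subunit, MT-RNR1, at 543 and 513 CPM (−0.08). Levels of ribosomal RNA depend on how the libraries selected RNA, a step that the labels name only by the kit.

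**Figure D5:**
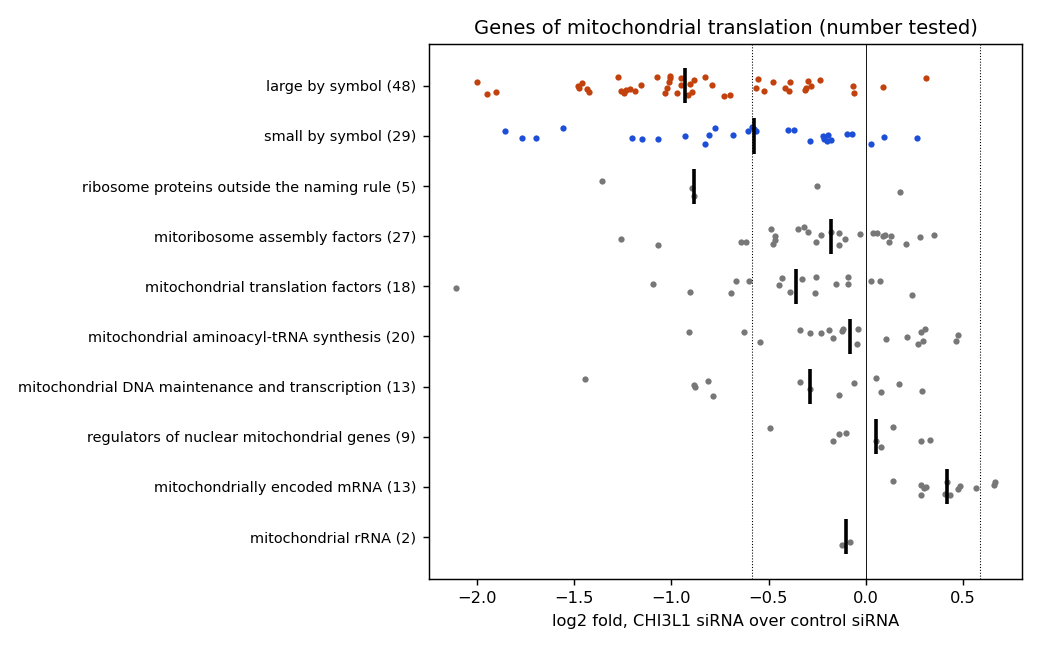
Log2 fold (x axis, CHI3L1 siRNA over control siRNA) of tested genes in each group, 1 point per gene, with the median as a black bar and dotted lines at 1.5-fold in either direction; points are spread vertically only to separate them. Before the trend is subtracted, the medians run from −0.93 for the large subunit and −0.58 for the small subunit through −0.18 for assembly factors to 0.42 for mitochondrially encoded messenger RNAs.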

How the data were processed

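RNA was extracted with Trizol and libraries were made from total RNA with an Illumina TruSeq kit, per the labels' protocols. Named in the submitters' processing notes, without versions or roles, are HISAT2, featureCounts, Trimmomatic, FastQC, MultiQC and GRCh38. No source used here gives the scaling tool, the annotation or whether a library pooled cultures. The authors deposited 1 table of CPM values. Each value is a step per library times the sum of 0.001 and whole reads, and 100% of values gave whole reads within 0.01 read. The 77 genes had 31 to 3705 reads in the control siRNA library and 19 to 3239 in the CHI3L1 siRNA library. No count model was run.

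Symbols, coordinates and lengths came from GENCODE release 29 and a gene name table, which gave a symbol to 19360 of 19362 identifiers. Lengths and GC content are of 1 annotated transcript per gene, chosen as principal, then best supported, then longest. The fold used a pseudocount of 1 CPM, and the trend a spline of 5 degrees of freedom per term. Gene lists, ribosome positions and the genes to name were set with earlier results of these data known. Named are CHI3L1, the 8 lowest and 8 highest folds, the 6 highest levels per kb, genes whose symbol and position differ, S18 paralogs, stalk genes, ribosome proteins without the symbol, genes with an overlapping gene of more reads, and the 4 largest absolute folds of each other list. Any further gene was named with its values in view. The steps were run in Python 3.11.15 with pandas 2.3.3, numpy 2.4.6, scipy 1.17.1, patsy 1.0.2 and matplotlib 3.10.9, and were tested on simulated data.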

Additional observations from a re-analysis of the deposited data

How the results depend on the processing

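Equal read totals, the share of same-strand overlap and leaving out MRPS36 were added after seeing the data. Under every setting run, the medians of the whole family and of both subunits were below 0, the large subunit median was below the small one, and 0 genes were higher by 1.5-fold. With a mean of at least 50 CPM, 38 genes had a median of −1.01, with 29 lower, 7 of them of the small subunit. At 2-fold, 28 genes were lower, 21 large and 7 small. With the trend in length, GC and coding length subtracted, the medians were −0.33 for all, −0.46 for large and −0.17 for small subunit genes, with 26, 19 and 7 lower. With length alone they were −0.35, −0.42 and −0.18, with 27 lower in all and 18 of the large subunit. With the longest transcript of each gene they were −0.32, −0.41 and −0.15, with 24, 18 and 6 lower. Annotated transcripts of at least 1000 nt left 21 of 36 large subunit genes lower. Without overlapping genes, 25 were lower, 20 large and 5 small. CHI3L1 had a log2 fold of −1.36 at a pseudocount of 10 CPM and −1.31 with the length trend alone. Of the genes called lower, MRPL33 was on the other side of 0 at 0.016 with the trend and 0.029 with the longest transcripts. In all, 10 genes crossed 0 with the trend, the other 9 having been within 1.5-fold. The changes in counts follow in part from fewer genes or a stricter fold, and otherwise the cause was not tested. No paired analysis was possible because each group had 1 library, and no replicate could be left out. Below about 5 CPM, as in MRPS24 and MRPL38, the depth leaves wide counting intervals.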
